A study of Mus musculus with 4 samples.

Results

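The ADAM proteases examined here were 7 genes, Adam8, Adam9, Adam10, Adam12, Adam15, Adam17 and Adam19, out of 19505 genes named on the array. They were taken by symbol from the platform annotation, with the brightest feature kept for each symbol, and each of the 7 had 1 feature. The set was chosen by the measured log2 difference between the spermidine and control arrays, with Adam8 in view for its size, so the values of these genes in that comparison are a description and carry no test. CD8+ T cells isolated from C57/BL6 mouse spleens and lymph nodes were stimulated with beads carrying antibodies to CD3 and CD28 and expanded in medium with IL-2 for 3 days. The control cultures were left untreated, and the others had 25 µM spermidine, a polyamine, added to the same medium, so stimulation and IL-2 were common to both groups. RNA from 2 control and 2 spermidine samples was read on 1 Clariom S Mouse array each. The comparison asks how the transcriptome of activated CD8+ T cells differs with spermidine in the medium.

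ADAM proteases are membrane proteins with a metalloprotease and a disintegrin domain, and the active ones cut the outer parts off other surface proteins, a step called ectodomain shedding. ADAM10 and ADAM17 are the main sheddases of lymphocytes: ADAM17 releases TNF, and ADAM10 makes the cut that starts Notch signalling. ADAM8 is a leukocyte ADAM first described in macrophages, which removes its own prodomain where most relatives need furin-type convertases.

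Values are log2 signals. The 95th percentile of the 23 antigenomic features, a set of background probes designed to match nowhere in the genome, averaged 6.35, and a signal below it may hold little that is specific. Array medians over 22206 gene features lay between 5.13 and 5.25, and any pair of arrays correlated across features between 0.989 and 0.994. The 8 hybridisation spike-ins averaged 7.67 and 7.58 in the control arrays, against 7.98 and 8.15 in the spermidine arrays, a difference of 0.44 whose part in the values below was not tested. All 9 measured CD8+ T cell markers stood above the background percentile, among them Cd8a between 16.57 and 16.68 and Cd3e between 15.06 and 15.91. The labels call the arrays of a group biological replicates without naming mice or cultures, so the SDs cover the spread between these samples. With 2 arrays per group their number limits the precision. Each SE comes from a limma fit that draws the variance of a gene towards that of all features. The prior from all features had 5.96 degrees of freedom, against 2 from the arrays of the gene. Such an SE can therefore be wider or narrower than the gene's own arrays would give.

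Adam8 was the 1 gene of the 7 whose groups stood apart. Its log2 signal was 10.05 and 10.10 in the control arrays, against 11.51 and 11.99 in the spermidine arrays. Both spermidine arrays were above both control arrays, with a gap of 1.41 between the nearest values. The group means were 10.08 ± 0.03 (SD, n = 2) without and 11.75 ± 0.33 (SD, n = 2) with spermidine, a log2 difference of 1.67 ± 0.25 (SE from the limma fit) or a 3.19-fold higher signal. This exceeded the 0.47 gap of the spermidine arrays 3.54 times, and the control arrays lay closer together. All 4 Adam8 values lay above the background percentile. Of the 8357 genes whose mean signal lay above that percentile, 2 had a larger difference in the same direction, the heme-degrading enzyme Hmox1 (2.77) and Jchain (1.92), which links immunoglobulin chains. Over all 22206 gene features, dim ones included, Adam8 held rank 11 by this difference. Leaving out 1 array gave Adam8 differences between 1.44, without spermidine replicate 2, and 1.91, without spermidine replicate 1. In bulk RNA, more cells that carry a transcript and more transcript per cell cannot be told apart.

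Of the 7 genes, 1 had both spermidine arrays above both control arrays and 0 had them below, while over all gene features 18.3% stood above and 18.4% below. Because the choice of genes used this comparison, nothing is read from these shares. The other 6 genes had overlapping groups. The median log2 difference of the 7 was 0.23, beside -0.01 over all gene features. It was -0.010 without spermidine replicate 1 and 0.47 without spermidine replicate 2, so it followed whichever spermidine array was kept.

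**Figure D1:**
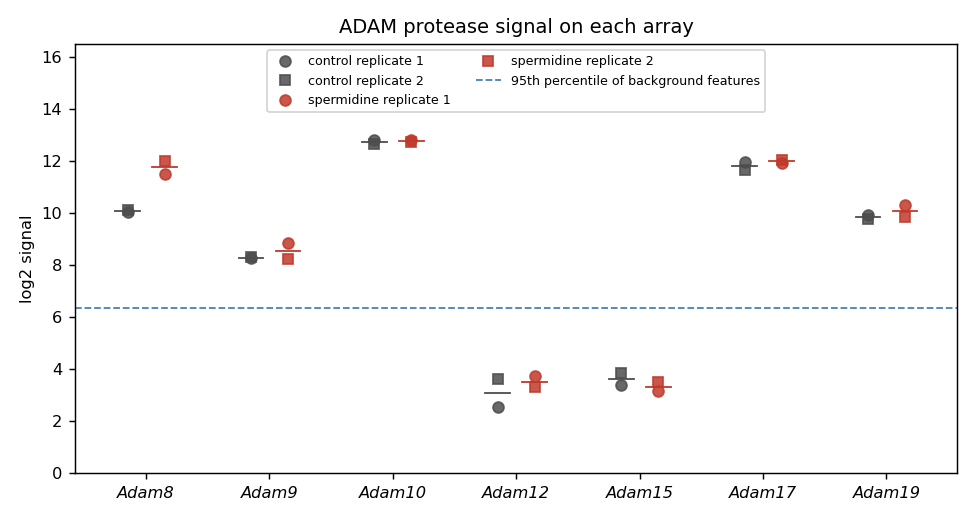
Log2 signal of the 7 ADAM genes on each array, grey for control and red for spermidine, circles for replicate 1 and squares for replicate 2, short lines for group means; the dashed line is the mean 95th percentile of the background features (6.35). For Adam8 the spermidine arrays (11.51 and 11.99) sit above the control arrays (10.05 and 10.10), for the other genes the groups overlap, and Adam12 and Adam15 lie below the dashed line on all 4 arrays.

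Sequence is shown for the gene that differed most and for the pair of sheddases best known in T cells, whose groups overlapped. The windows are RefSeq promoter sequences (GRCm38.p6), each of 300 bases, running from 250 bases before to 50 bases after the annotated start of the gene, given 5′ to 3′ on the strand of the gene. Such windows were on hand for 5 of the 7 genes. Capitals mark every match, on either strand, to 5 short motifs: the AP-1 site TGANTCA, the core TGACNNNGC of the antioxidant response element, the GC box GGGCGG, the CCAAT box CCAAT and the E-box CACGTG. An AP-1 site and an antioxidant core can share bases, and neighbouring GC boxes can overlap. The Adam8 window lies on the minus strand of chromosome 7, chr7:139992513-139992812, that of Adam10 on the plus strand of chromosome 9, chr9:70678732-70679031, and that of Adam17 on the minus strand of chromosome 12, chr12:21373583-21373882.
Adam8: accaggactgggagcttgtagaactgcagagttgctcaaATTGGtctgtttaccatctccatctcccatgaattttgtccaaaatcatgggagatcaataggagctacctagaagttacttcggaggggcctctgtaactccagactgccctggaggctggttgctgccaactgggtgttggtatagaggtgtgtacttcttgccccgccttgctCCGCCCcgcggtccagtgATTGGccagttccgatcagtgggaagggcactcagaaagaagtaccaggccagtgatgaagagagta
Adam10: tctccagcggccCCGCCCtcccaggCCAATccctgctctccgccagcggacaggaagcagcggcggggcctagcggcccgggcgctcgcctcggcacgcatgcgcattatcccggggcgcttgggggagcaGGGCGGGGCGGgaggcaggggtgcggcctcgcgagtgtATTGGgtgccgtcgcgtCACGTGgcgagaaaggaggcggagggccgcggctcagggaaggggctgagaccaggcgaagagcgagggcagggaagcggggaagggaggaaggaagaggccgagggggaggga
Adam17: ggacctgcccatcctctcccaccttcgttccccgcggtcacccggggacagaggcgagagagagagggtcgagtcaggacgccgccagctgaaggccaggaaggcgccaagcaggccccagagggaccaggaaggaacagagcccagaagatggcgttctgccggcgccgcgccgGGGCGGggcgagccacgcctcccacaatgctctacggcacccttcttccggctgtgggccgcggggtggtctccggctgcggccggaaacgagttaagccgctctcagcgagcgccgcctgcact

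The Adam8 window held 3 matches. A CCAAT box on the opposite strand began 17 bases before the start site and another 211 bases before it, and a GC box on the opposite strand began 35 bases before it. Neither an AP-1 site nor an antioxidant core was found in these 300 bases of Adam8, Adam10 or Adam17. Among the windows not shown, that of Adam19 beginning at chr11:46055734 held an AP-1 site, TGAGTCA, 131 bases before its start site. The other Adam19 windows and that of Adam15 held none. Of 32851 promoter windows of the same length, 7.81% held an AP-1 site, 12.4% an antioxidant core, 35.7% a GC box, 37.4% a CCAAT box and 7.15% an E-box. The Adam10 window held 3 GC boxes, 2 CCAAT boxes and an E-box 64 bases before the start, and the Adam17 window a single GC box 75 bases before it. By base composition the Adam8 window was 52.3% G and C, near the median of 52.7% for all windows, against 73.3% in Adam10 and 70.0% in Adam17. These are matches of letters, and no binding was measured.

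The sheddase genes Adam10 and Adam17 had overlapping groups and differences smaller than their SE. Adam10 stood at 12.79 and 12.66 in the control arrays and at 12.80 and 12.71 in the spermidine arrays. The groups overlap, the gap between the control arrays was 0.13, and the log2 difference was 0.03 ± 0.22 (SE). Its sign turned without control replicate 2 (-0.03) and without spermidine replicate 1 (-0.01). Adam17 stood at 11.96 and 11.65 in the control arrays and at 11.94 and 12.05 in the spermidine arrays. The low value was control replicate 2, while the other control array lay between the spermidine arrays. The log2 difference of Adam17 was 0.19 ± 0.23 (SE), and it was 0.34 without control replicate 1 and 0.04 without control replicate 2. The gap between the control arrays of Adam17, 0.31, was larger than the difference between the groups.

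Adam9 and Adam19 shared a pattern in which 1 spermidine array stood above the rest. Adam9, a widely expressed ADAM, had log2 signals of 8.26 and 8.29 in the control arrays, against 8.86 and 8.24 in the spermidine arrays. Adam19, known from neuregulin shedding and heart development in the mouse, had 9.92 and 9.77 in the control arrays, against 10.32 and 9.84 in the spermidine arrays. In both genes, as in Adam10 and Adam12, spermidine replicate 1 was the highest array. For Adam8 the highest was spermidine replicate 2. The log2 differences were 0.27 ± 0.27 (SE) for Adam9 and 0.23 ± 0.25 (SE) for Adam19, which is 0.442 and 0.479 times the gap between their spermidine arrays. Without spermidine replicate 1 they stood at -0.04 and -0.01, and without spermidine replicate 2 at 0.58 and 0.47.

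Adam12 and Adam15 gave no signal above background. Adam12, an ADAM of muscle and connective tissue, read 2.55 and 3.62 in the control arrays, against 3.71 and 3.30 in the spermidine arrays. Adam15 read 3.40 and 3.85 in the control arrays, against 3.16 and 3.48 in the spermidine arrays. The groups overlap in both genes, all 8 values lie below 6.35, and no fold is given for them. Their log2 differences, 0.42 for Adam12 and -0.30 for Adam15, were smaller than the gaps between their control arrays, 1.07 and 0.46.

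**Figure D2:**
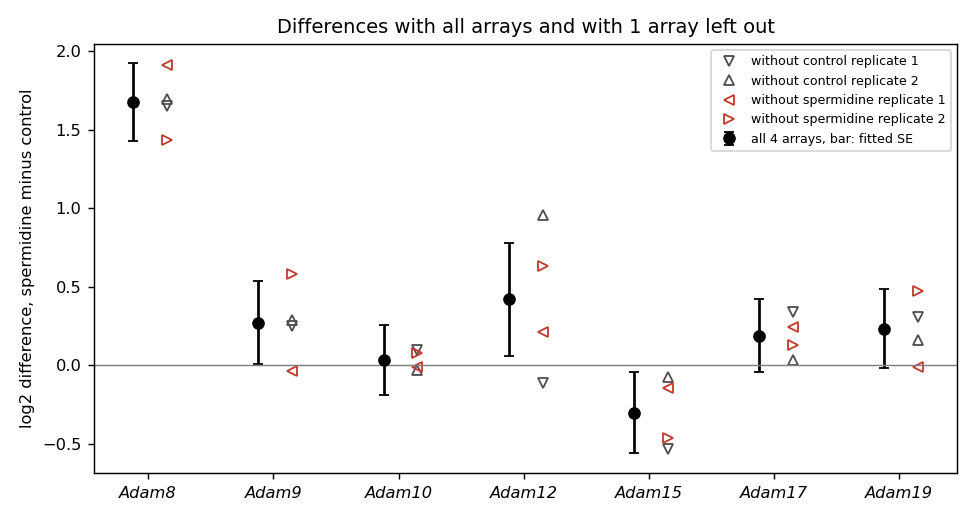
Log2 difference, spermidine minus control, of each ADAM gene with all 4 arrays (black point, bar for the fitted SE) and with 1 array left out (open triangles, grey where a control array and red where a spermidine array was left out). Adam8 stays between 1.44 and 1.91, while Adam9, Adam10, Adam12 and Adam19 fall on both sides of 0 depending on the array left out.

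The genes with the array profile nearest to that of Adam8 were found among the other 8356 named genes with a mean above the background percentile. Likeness was the root mean square difference between 2 genes over the 4 arrays, after subtracting from each gene its own mean. The nearest were Ttc39c (0.165), the leukocyte receptor gene Lilr4b (0.219), Jchain (0.241), the chemokine Ccl3 (0.245) and the heat shock protein gene Hspa1b (0.246). Ttc39c read 6.51 and 6.61 in the control arrays, against 7.66 and 8.56 in the spermidine arrays. Lilr4b read 11.52 and 11.21 in the control arrays, against 12.44 and 12.92 in the spermidine arrays. Ccl3 read 9.35 and 9.03, then 10.12 and 10.89. In all 5, as in Adam8, spermidine replicate 2 was the highest array. Jchain and Hspa1b were above the background percentile in the spermidine arrays alone, and Hspa1b and Lilr4b have closely related copies that probes may not separate. With 4 arrays, likeness of this kind is a description and many genes can come close by the size of the group difference.

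**Figure D3:**
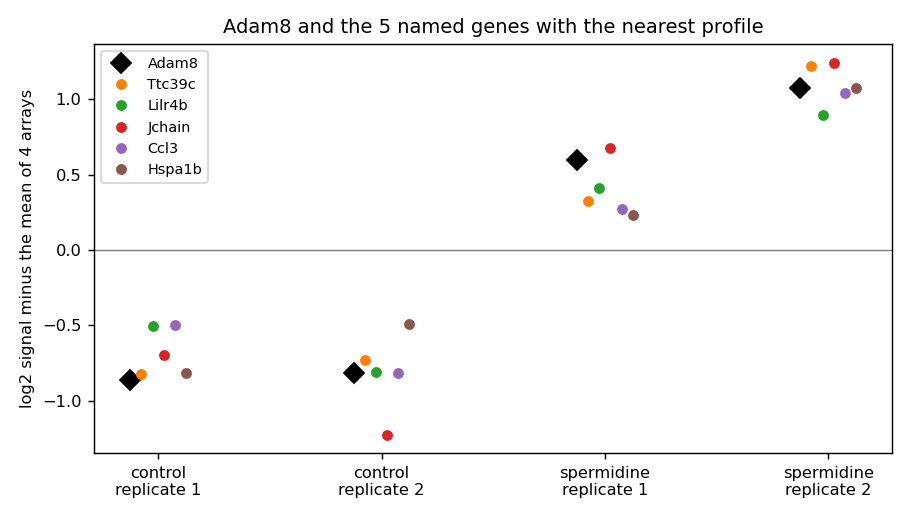
Log2 signal minus the mean over the 4 arrays, for Adam8 (black diamonds) and the 5 named genes nearest to it, on each of the 4 arrays. All 6 genes lie below 0 in both control arrays and above 0 in both spermidine arrays, highest in spermidine replicate 2.

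Beside the 7 genes, 9 lists of related genes were measured, 147 genes in all, of which 35 had a mean signal above the background percentile. None of the 147 passed an adjusted p of 0.05 in limma, where 0% of all gene features passed as higher and 0% as lower, and 12 had an unadjusted p under 0.05, as did 1558 of the 22206 features. Both spermidine arrays stood above both control arrays in 31 of the 147 and below them in 21, beside 18.3% and 18.4% of all gene features. The median log2 difference of the 147 was 0.05.

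The rest of the ADAM family was at background. All 26 other measured ADAM genes, including the lymphocyte ADAM Adam28 and many known from testis, lay below the background percentile on all 4 arrays. Their median log2 difference was 0.04, and 0 passed the adjusted threshold. Both spermidine arrays stood above the controls in 3 and below in 4 (18.3% and 18.4% over all gene features). The 21 measured matrix metalloproteinases, secreted or membrane-bound relatives that cut extracellular matrix, were likewise below it on all arrays (median 0.01, with 5 above the controls and 5 below). As both lists lay below background, nothing is read from these counts. Of 23 measured ADAMTS genes, secreted relatives with thrombospondin repeats, 2 had means above background. Adamts10 read 10.22 and 10.05 in the control arrays, against 10.57 and 10.28 in the spermidine arrays, a difference of 0.29 ± 0.23 (SE) with a gap of 0.06 between the groups, and 0.15 without spermidine replicate 1 or 0.43 without spermidine replicate 2. Thus 5 of the 33 measured ADAM genes, Adam8, Adam9, Adam10, Adam17 and Adam19, gave signal above background on every array.

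Genes that mature or carry these proteases had a list median near that of all features. The inhibitor genes did too, but most of them gave no signal above background. Of the 15 maturation and trafficking partners, 6 had means above background and the list median was 0.03. There were 2 genes above and 1 below the controls (18.3% and 18.4% over all gene features). Furin, a convertase that removes ADAM prodomains, differed by 0.03 and Pcsk7 by 0.02. Rhbdf2, the iRhom that brings ADAM17 to the surface in immune cells, read 7.82 and 7.71 in the control arrays, against 7.95 and 8.01 in the spermidine arrays (0.22 ± 0.22, SE), and Frmd8, which stabilises iRhoms, differed by 0.06. Tspan14, a tetraspanin that escorts ADAM10, read 10.76 and 10.71, then 10.64 and 10.60 (-0.11 ± 0.22, SE). The median of 7 inhibitor genes was -0.02, but 5 of them lay below background on all arrays. The 2 with means above it, Timp2 and Reck, had a median of -0.37. The tissue inhibitor Timp2 read 6.68 and 7.16 in the control arrays, against 6.44 and 6.26 in the spermidine arrays, just around the background percentile. Its difference was -0.57 ± 0.25 (SE), and it was -0.33 without control replicate 2 and -0.82 without control replicate 1. Reck had overlapping groups and differed by -0.17. Timp1 and Timp3 lay below background on all arrays, the latter an inhibitor of ADAM17. Of 6 measured gamma-secretase genes, whose product cuts the stubs that shedding leaves, Psenen read 14.26 and 14.08, then 13.82 and 13.74 (-0.39 ± 0.22, SE), and the list median was -0.05.

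Genes for proteins that ADAMs are known to shed stood higher in some cases and lower in others with spermidine, and none passed the adjusted threshold. Of 33 measured substrates, 16 had means above background, 10 of the 33 had both spermidine arrays above the controls and 6 below (18.3% and 18.4% over all gene features), and the median was 0.08. That median turned to -0.03 without control replicate 1 and to -0.02 without spermidine replicate 1. Selplg, the selectin ligand PSGL-1, which ADAM8 can cut, read 16.56 and 16.66 in the control arrays, against 16.45 and 16.47 in the spermidine arrays (-0.15 ± 0.22, SE). Tnf, the classic ADAM17 substrate, read 13.14 and 13.65, then 12.67 and 13.17, with overlapping groups (-0.48 ± 0.28, SE, and -0.22 without control replicate 2). Cd44, the hyaluronan receptor, read 12.49 and 12.73, then 12.73 and 13.32, groups that barely separate (0.42 ± 0.27, SE, and 0.12 without spermidine replicate 2). Icam1, an adhesion ligand, was clearer, at 10.57 and 10.37 in the control arrays, against 10.93 and 11.37 in the spermidine arrays (0.68 ± 0.25, SE).

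Receptor genes among the substrates differed in size and direction. Tnfrsf1a, a TNF receptor, read 7.60 and 7.15, then 7.11 and 6.61 (-0.51), with a narrow gap between the groups. Il1r2, the decoy receptor for interleukin 1, lay below background on all arrays (4.56 and 4.53, then 5.26 and 5.50). Il6ra, the interleukin 6 receptor, had overlapping groups (8.77 and 9.15, then 8.56 and 9.16), and Tnfrsf1b, the other TNF receptor, had groups that only just separated (10.12 and 9.92, then 10.15 and 10.66), with a difference of 0.39 that was 0.13 without spermidine replicate 2. Among inhibitory receptors the values pointed opposite ways. Havcr2, which encodes TIM-3, read 6.87 and 6.55 in the control arrays and 7.36 in both spermidine arrays (0.65 ± 0.23, SE). Lag3 read 6.60 and 6.32, then 5.76 and 5.84 (-0.66 ± 0.23, SE), with 1 control array above the background percentile. Notch1, cut by ADAM10, read 6.58 and 6.31, then 7.17 and 6.60 (0.44 ± 0.27, SE), a difference of 0.16 without spermidine replicate 1 and 0.73 without spermidine replicate 2.

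Of the substrates with signal whose groups separated, the largest differences moved most with 1 array. Tnfrsf8, which encodes CD30, read 8.20 and 7.74 in the control arrays, against 7.55 and 6.19 in the spermidine arrays (-1.10 ± 0.42, SE), and the difference was -0.42 without spermidine replicate 2. Axl, a receptor tyrosine kinase, read 7.07 and 7.11, then 7.32 and 8.51 (0.82 ± 0.37, SE), and 0.23 without spermidine replicate 2. Fasl lay below background on all 4 arrays. All 7 measured EGF family ligands, another substrate class, lay below background on all arrays.

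Of 9 integrin chains that can bind disintegrin domains, 6 had means above background, and the list median was 0.16. There were 3 genes above the controls and 0 below (18.3% and 18.4% over all gene features). Of these 3, Itga5 and Itga9 lay below background on all arrays, which leaves Itgb3 as the 1 with signal. The median was 0.003 without spermidine replicate 1 and 0.34 without spermidine replicate 2. Itgb3, the beta chain of the vitronectin receptor, read 11.46 and 12.06 in the control arrays, against 12.61 and 12.51 in the spermidine arrays (0.80 ± 0.26, SE). It was 0.50 without control replicate 1. Itgb1, a chain that ADAM8 is reported to contact, had overlapping groups and a difference of -0.22.

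**Figure D4:**
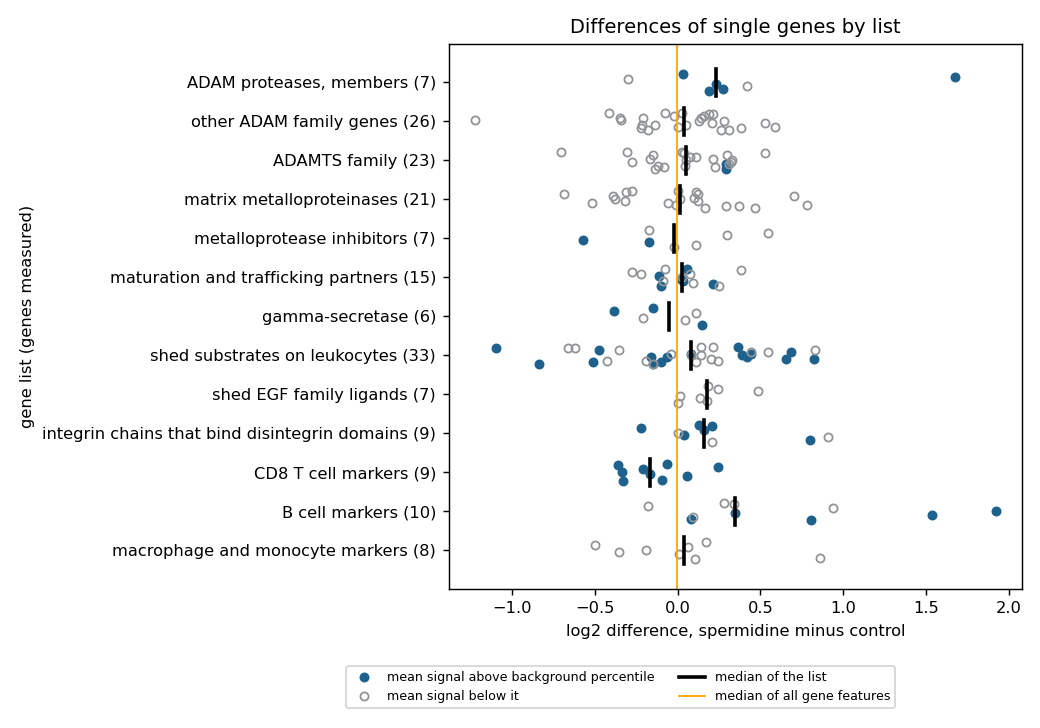
Log2 difference, spermidine minus control, of every measured gene in the ADAM set, the related lists and 3 marker lists; filled points have a mean signal above the background percentile, black bars are list medians and the orange line is the median of all gene features (-0.01). Adam8, at 1.67, is the point farthest to the right among the protease, partner and substrate lists, and the 26 other ADAM genes are all open points.

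Because ADAM8 is also made by myeloid and B cells, markers of other cells were read in the same arrays. Of 10 measured B cell markers, 6 had both spermidine arrays above the controls and 0 below (18.3% and 18.4% over all gene features), with a median difference of 0.34. Their summed signal, as log2, ran from 9.67 to 9.74 in the control arrays and from 10.41 to 10.46 in the spermidine arrays. Cd79a, a chain of the B cell receptor complex, read 6.44 and 6.50, then 7.40 and 7.15, and Cd180 read 7.13 and 6.48, then 8.19 and 8.49. The B cell markers Ms4a1, Pax5, Blk, Cr2 and Cd22 lay below background on all 4 arrays. Of the 6 above the controls, 4 had means above background: Cd79a, Cd79b, Cd180 and Jchain. Jchain read 6.09 and 5.56 in the control arrays, below the percentile, so its mean passed through the spermidine arrays. Fcer2a had signal above background on all 4 arrays, but its groups overlapped (7.61 and 7.96, then 8.04 and 7.70), with a difference of 0.08. Jchain and Cd180 were on this list with their differences already known. The count, the median and the summed signal include both genes, so nothing is read from them about B cells. The part of B cells in the Adam8 difference was not tested.

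All 8 measured macrophage and monocyte markers, Adgre1, Csf1r, Cd14, Lyz2, Fcgr1, Mertk, C1qa and C1qb, lay below background on all 4 arrays, with summed log2 signals from 6.82 to 6.84 in the control arrays and from 6.86 to 6.95 in the spermidine arrays. The 7 neutrophil markers were also below it on every array, with sums between 6.97 and 7.17 over the 4 arrays. Of 6 basophil, mast cell and eosinophil markers, Cpa3 alone was above background (6.81 and 7.41, then 7.73 and 7.95). The summed signals, which include Cpa3 as the brightest of the 6, were 7.51 and 7.86, then 8.08 and 8.28. The median difference of this list was -0.06, with 2 genes positive and 4 negative. Cpa3 was the 1 gene above the controls and Prg2 the 1 below (18.3% and 18.4% over all gene features). The 9 genes of the CD8+ T cell marker list had summed signals of 18.54 and 18.63 in the control arrays, against 18.35 and 18.38 in the spermidine arrays. Their median difference was -0.17, with 0 of the 9 above the controls and 5 below. The shares were 18.3% and 18.4% over all gene features, and 19.0% and 22.5% among genes with means above background.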

How the data were processed

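RNA was measured in 2 control and 2 spermidine samples on Clariom S Mouse arrays, from 250 ng of total RNA each, per the labels' protocols. Per the submitters' processing notes the authors used RMA within Affymetrix Expression Console, versions not stated, and what they deposited is a log2 signal for each feature; RMA compresses differences of dim features. The log2 scale was inferred from the values, and no genome build of the annotation was given in these sources. Groups and replicate numbers came from the titles.

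Of 28846 features, 6640 control features were set aside and 22206 gene features were fitted with limma 3.58.1 in R 4.3.3 (lmFit and eBayes, two-sided, Benjamini-Hochberg over all gene features, threshold 0.05). An annotation gave 19572 features 1 symbol, 0 several and 2634 none; a RefSeq table (GRCm38.p6, names only) held the Entrez identifiers of 19572, with 0 symbols changed. Symbols with several features used the brightest.

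The genes and lists were chosen with earlier results of these data known. Names beyond the 7 ADAM genes were, per list, up to 4 genes with separate groups, the larger group mean above background and the largest difference, together with 10 T cell substrates by name, 1 of them not analysed here, and the 5 profiles nearest Adam8. Other genes named, such as Furin, Pcsk7, Frmd8, Reck, Itga5, Itga9, Itgb1, Tnfrsf1a, Il1r2 and marker genes, were chosen after their values were seen. The fit was tested on simulated data. Alternatives were other prior variances, array weights, 3 further normalizations, a level filter, a stricter background percentile, all features of a symbol averaged, the replicate number as a block, and each array left out.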

Additional observations from a re-analysis of the deposited data

How the results depend on the processing

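The Adam8 difference kept its direction under all 9 alternatives, between 1.44 and 1.91 on the log2 scale. Under the further normalizations it lay between 1.66 and 1.72. With 2 arrays per group, leaving 1 out cannot move a single gene by more than its pooled SD between replicates. The size of those moves against that SD is therefore no test. The median of the 7 ADAM genes ran from -0.010 to 0.47 with 1 array left out and from 0.22 to 0.27 under the further normalizations. With 1 array left out, the sign turned for Adam9 (-0.04), Adam10 (-0.03 and -0.01), Adam12 (-0.11) and Adam19 (-0.01). Averaging all features of a symbol changed no ADAM value, since each has 1 feature, and 5 genes stayed above background at the 99th percentile. The median of the related lists ran from -0.02 to 0.10 with 1 array left out. The count of features past the adjusted threshold was 0 of 22206 and became 1, Hmox1, with an intensity trend in the prior variance, with the level filter, after median centring, after cyclic loess and with the replicate block; it stayed 0 with each array left out. Arrays with the same replicate number deviated together from their group means with a correlation of 0.21 across features, which are not independent, and the labels do not say that the numbers pair the samples. The replicate block left the Adam8 difference at 1.67, which the balanced design fixes in advance. Further scaling moved the median of all features by less than 0.1. With 2 arrays per group the outlier screen could not be run, and signals below background limit what can be said of Adam12, Adam15 and 26 other ADAM genes.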
